A study of Arabidopsis thaliana with 3 samples.

Results

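Phytochromes are the red and far-red light receptors of plants, and the phytochrome-interacting factors (PIFs) are basic helix-loop-helix (bHLH) transcription factors that active phytochromes bind and mark for removal. Light thereby lifts the PIF programme of stem elongation and restrained greening, and in shade, warmth or darkness PIFs build up again. The 10 loci described here were the 5 phytochrome genes of Arabidopsis thaliana, PHYA to PHYE, and the 5 PIF genes PIF1, PIF3, PIF4, PIF5 and PIF7, out of 27444 annotated protein-coding genes. A locus was taken as its annotated gene span extended by 500 bp on each side, and every deposited peak that overlapped it by 1 bp or more was taken, which gave 16 of 16653 peaks in replicate 1 and 14 of 16413 in replicate 2.

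The peaks mark where BDH1-FLAG was found on chromatin. BDH1 belongs to the BCL-domain homolog proteins that the series title ties to SWI/SNF, a complex that uses ATP to move nucleosomes. Both samples analysed were inflorescences of plants of genotype bdh1-1 BDH1-FLAG, that is, a bdh1-1 mutant with a FLAG-tagged BDH1 transgene, grown on soil in long days and immunoprecipitated with an anti-FLAG antibody (chromatin immunoprecipitation and sequencing, ChIP-seq). The third sample of the series, wild type without the tag, was not analysed here, so no value is set against an untagged background and no groups were compared. The labels give neither the promoter of the transgene nor whether the replicates came from separate plants or lines. An inflorescence mixes many cell types, so a peak present in few cells and a weak peak in all cells cannot be told apart. Read depth behind the lists is unknown, so no counting error could be given.

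In each list a peak has a fold enrichment, which is the authors' own ratio of signal over background at its summit, and a −log10 q, the size of its corrected p-value. Both describe a peak within its own list. The fold enrichment of all peaks had a median of 2.25 and an upper quartile of 2.62 in replicate 1, and of 2.23 and 2.58 in replicate 2. The top peak in either list fell on BDH1 itself, with a fold enrichment of 14.4 and 7.53. The plants also carry a BDH1 transgene, so these values are not read as binding at BDH1, and their cause was not tested. The gene table gives no strand, so the ends of a gene are called lower or higher by coordinate and the start of transcription is not identified.

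A BDH1-FLAG peak was present in both replicates at 9 of the 10 genes, the exception being PIF7. By the same rule 52.1% of all protein-coding genes were called in both. Most members are long, and long genes carried peaks more often. When all protein-coding genes were ordered by length and cut into 10 equal groups, the share was 66.1%, 68.0% and 68.3% in the 3 groups of longest genes, which hold all the members but PIF7, and 59.3% in the group of PIF7. All 5 phytochrome genes and 4 of the 5 PIF genes had a peak. With 10 genes and a background this high, nothing particular to light receptors is read from the count. Requiring a −log10 q of at least 5 in both lists kept 9 genes, against 36.9% of all protein-coding genes, and requiring at least 10 kept PHYA, PHYC and PIF5, against 11.8%. In the 3 groups of longest genes the shares were 46.7% to 47.8% at 5 and 12.8% to 14.9% at 10.

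**Figure D1:**
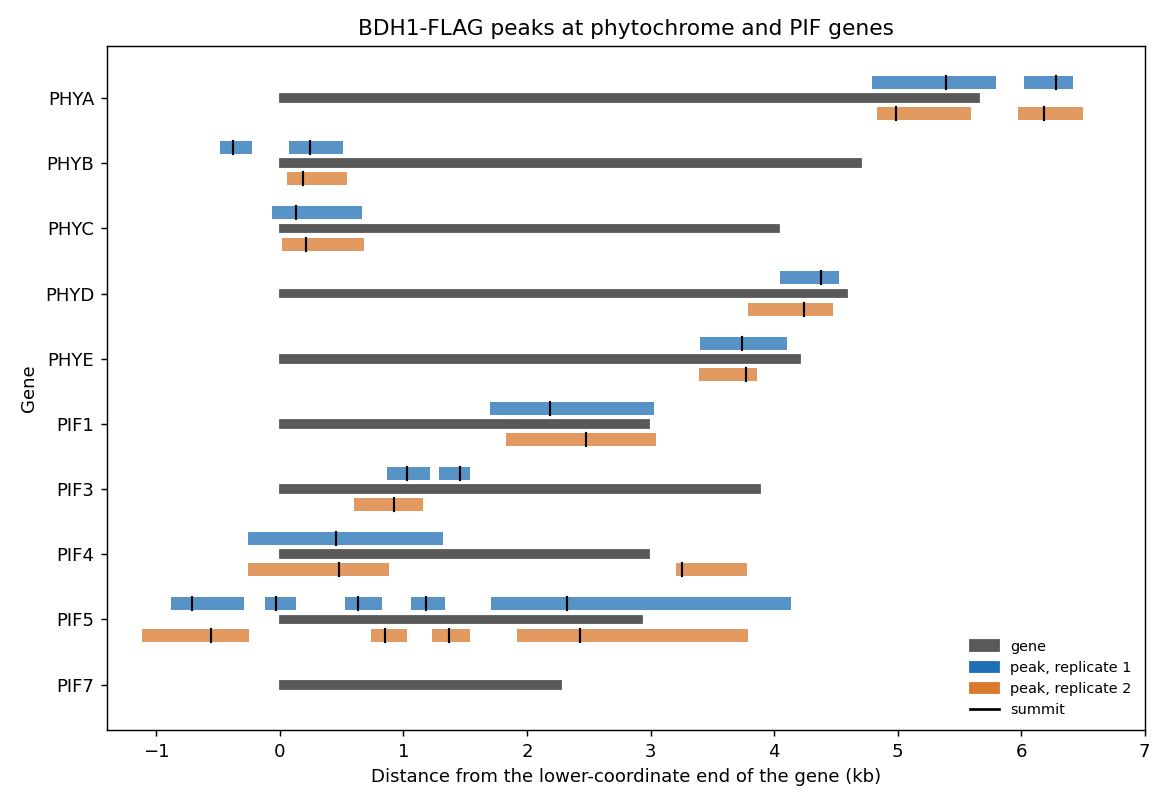
Peaks at the 10 genes in both BDH1-FLAG replicates, by distance in kb from the lower-coordinate end of each gene. Grey bars are genes, coloured boxes are peaks and black ticks are summits. Each phytochrome gene has its strongest peak near the same end in both lists, PIF5 has several peaks along its length, and PIF7 has none.

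The phytochrome genes shared a simple layout. The summit of the strongest peak lay inside the gene, towards the same end in both lists, and the rest of the gene body had no peak. In replicate 1 the interval itself ran past that end at PHYA and PHYC. That end was the lower-coordinate one at PHYB and PHYC and the higher-coordinate one at PHYA, PHYD and PHYE. Summits lay 134 to 472 bp from the end in replicate 1 and 184 to 669 bp in replicate 2. The peaks inside the gene covered 9.33% (PHYB) to 16.6% (PHYE) of its length in replicate 1 and 10.2% (PHYB) to 16.5% (PHYC) in replicate 2. Over protein-coding genes of 4 kb or more with a summit in both lists, the median cover was 8.55% and 8.96%. Of those genes 94.0% also had their strongest summit nearest to the same end in both lists. Among all protein-coding genes of 4 kb or more, 12.7% had 2 or more summits in both lists. That share takes in summits up to 500 bp outside the gene, and its base includes genes without a peak. How often the rest of a gene body lacked a peak was not counted. The layout is not read as particular to the phytochrome genes.

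PHYA (AT1G09570) encodes the light-labile receptor that acts in far-red light and in very weak light. Its main peak lay at chr1:3099951-3100958 in replicate 1, where the fold enrichment was 2.73 (−log10 q 10.7), and at chr1:3099990-3100754 in replicate 2, where it was 2.76 (−log10 q 11.3). The intervals matched closely, but the summits did not, lying 265 bp from the higher-coordinate end in replicate 1 and 669 bp in replicate 2, 404 bp apart. A weaker peak just beyond PHYA reached into the extended locus in both lists, with a fold enrichment of 1.72 and 1.85. Its summit lay inside the neighbouring gene AT1G09575 and more than 500 bp past the end of PHYA, so it counts as overlapping the locus but not as a summit there. Of all summits of peaks touching the 10 loci, the one nearest the 500 bp limit from outside was this one in replicate 2, 523 bp from PHYA, and from inside one at PHYB in replicate 1, 381 bp from the gene.

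PHYB (AT2G18790) encodes the light-stable receptor that dominates red-light and shade responses of green plants, and PHYD (AT4G16250) is its closest relative. At PHYB the strongest peak spanned chr2:8139829-8140267 in replicate 1 and chr2:8139815-8140294 in replicate 2, with fold enrichments of 2.47 and 2.58 and summits 240 and 184 bp inside the lower-coordinate end. Replicate 1 alone listed a further peak of 254 bp outside that end, with a fold enrichment of 1.95. PHYD had a single peak in each list, at chr4:9199292-9199770 with a fold enrichment of 2.41 in replicate 1 and at chr4:9199038-9199726 with 2.84 in replicate 2. Its place within the lists differed, rank 6232 in the first and 2134 in the second, so the standing of the PHYD peak is known only roughly. Both genes of this related pair had their strongest summit within 500 bp of an end in both lists, at opposite ends by coordinate. Without strand these ends cannot be matched to transcription.

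PHYC (AT5G35840), whose product works mainly as a partner of PHYB, had the highest phytochrome peak. It lay at chr5:14007751-14008479 in replicate 1, where the fold enrichment was 2.98 (−log10 q 12.1), and at chr5:14007830-14008494 in replicate 2, with 3.00 (−log10 q 11.9). It ranked 1916 and 1361, above PHYA, which ranked 3296 and 2613. PHYE (AT4G18130), a further light-stable receptor that overlaps with PHYB in shade responses, was at chr4:10045541-10046240 with 2.47 in replicate 1 and at chr4:10045530-10045999 with 2.25 in replicate 2. Its summits agreed best among the phytochromes, 39 bp apart. In both lists PHYC stood above PHYA, and the order of PHYB, PHYD and PHYE changed between the lists.

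**Figure D2:**
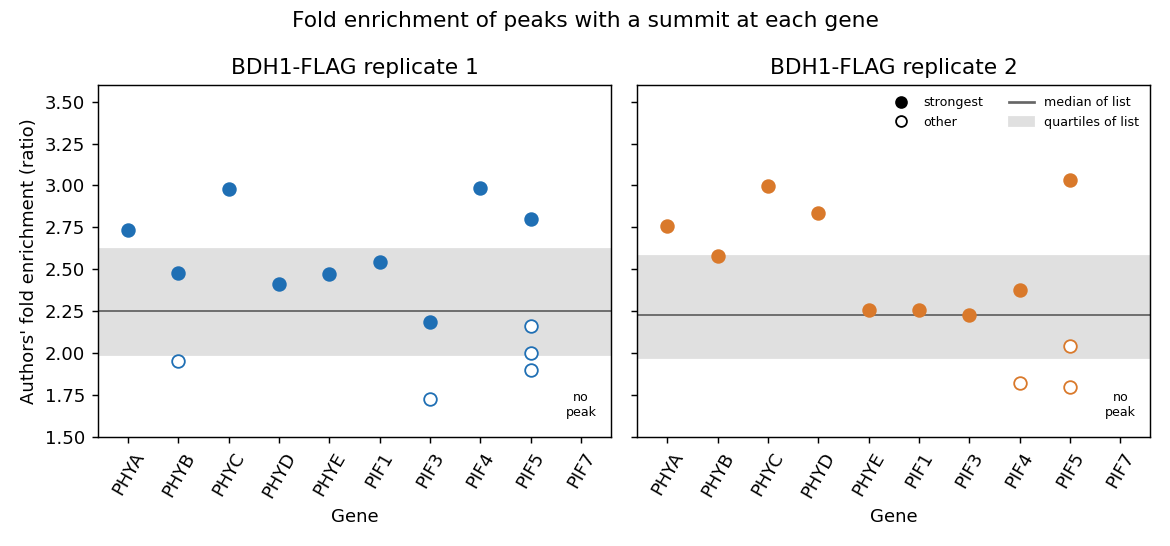
The authors' fold enrichment (a ratio) of each peak with its summit inside the extended locus, by gene, in replicate 1 (left) and replicate 2 (right). Filled points are the strongest peak of a gene and open points its other peaks; the line and the grey band give the median and the quartiles of all peaks of that list. Strongest peaks run from 2.18 to 2.99 in replicate 1 and from 2.23 to 3.03 in replicate 2, and PIF3 is the lowest in both.

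Among the PIF genes the peaks were broader or lay deeper in the gene. PIF4 (AT2G43010), the factor best known for warmth and shade elongation, had a peak that spanned 1579 bp at chr2:17885843-17887421 in replicate 1 and 1138 bp at chr2:17885845-17886982 in replicate 2. It started outside the lower-coordinate end at nearly the same base in both lists, and its summits were 32 bp apart, 450 and 482 bp inside the gene. Its fold enrichment was 2.99 in replicate 1, rank 1882 and the highest strongest peak of the 10 genes there, and 2.38 in replicate 2, rank 6315. A second, weak peak past the other end, with a fold enrichment of 1.82, was listed in replicate 2 alone.

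PIF5 (AT3G59060, symbol PIL6 in the gene table), which acts with PIF4 in shade and in dark-induced leaf ageing, carried the most extended signal. Replicate 1 had 5 peaks touching the locus and replicate 2 had 4, and 4 and 3 of these had their summit inside it. Only 0.885% of all protein-coding genes, and 1.30% of those of 2 to 4 kb, had 3 or more summits in both lists; PIF5 was the single member with even 2 in both, where the share of all protein-coding genes is 9.54%. Its main peak covered the higher-coordinate part of the gene and ran beyond it, at chr3:21829616-21832041 in replicate 1, where it was 2426 bp wide with a fold enrichment of 2.80, and at chr3:21829828-21831690 in replicate 2, where it was 1863 bp wide with 3.03. This peak also took in the long non-coding RNA gene AT3G09185, and its summits lay inside PIF5, 609 and 502 bp from the end. Together the peaks covered 65.7% of PIF5 in replicate 1 and 54.6% in replicate 2, against a median of 18.0% and 18.6% over genes of 2 to 4 kb with a summit in both lists.

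At the other end of PIF5 a peak with a fold enrichment of 3.16 in replicate 1 and 2.67 in replicate 2 reached into the extended locus. Its summit lay inside the neighbouring gene PAO3, which encodes a polyamine oxidase, and more than 500 bp from PIF5. It was therefore not counted as the strongest PIF5 peak, although in replicate 1 it was the highest of all 16. The 2 small peaks in the body of PIF5 that overlapped between the lists had fold enrichments of 1.90 and 2.16 in replicate 1 and of 2.04 and 1.80 in replicate 2, all below the median of their list. Their summits lay 222 and 182 bp apart between the lists, so the lists need not mark the same sites.

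PIF1 (AT2G20180, symbol PIL5 in the gene table), a repressor of seed germination and of chlorophyll synthesis in the dark, had a single broad peak in each list. It spanned 1323 bp at chr2:8705726-8707048 in replicate 1, where the fold enrichment was 2.54, and 1209 bp at chr2:8705856-8707064 in replicate 2 with 2.26. The peak ran just past the higher-coordinate end, but its summits were well inside, 801 and 506 bp from that end, and 295 bp from each other. It covered 43.0% and 38.6% of the gene.

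PIF3 (AT1G09530), the founding member of the family, was the member whose strongest summit lay farthest from a gene end in both lists. Like the strongest peaks of PHYB, PHYD and PHYE, its peaks lay wholly within the gene. The strongest PIF3 peaks were at chr1:3076633-3076985 in replicate 1 and chr1:3076367-3076926 in replicate 2, with summits 1026 and 921 bp from the nearest end. They were also the weakest, with a fold enrichment of 2.18 in replicate 1, just under the median of that list, and 2.23 in replicate 2, equal to it. A neighbouring small peak with a fold enrichment of 1.72 was listed in replicate 1 alone. PIF3 and PHYA lie 15.5 kb apart on chromosome 1, and the stretch between them held 1 peak in replicate 1 and 2 in replicate 2, so their peaks were separate.

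PIF7 (AT5G61270), a light-stable PIF central to the shade response, had no peak within 500 bp in either list. The nearest peaks stood 795 bp past its higher-coordinate end in replicate 1 and 897 bp past it in replicate 2, outside all annotated genes. Their fold enrichments were 2.09 and 1.94. On the other side the nearest peaks were 8735 and 8704 bp away, at the gene AT5G61240. A peak that stayed under the authors' threshold would not be listed, so signal at PIF7 was not detected at this threshold, which reached down to a −log10 q of 1.32 and 1.31.

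The strongest summit lay deeper in several of the members than in most genes. All 9 genes with a peak had that summit inside the gene in both lists, as did 75.8% of all protein-coding genes with a summit in both. At all 9 the strongest peaks of the lists overlapped each other, against 91.1% of those genes, and their summits were nearest to the same end, against 92.3%. These counts are near the background. The strongest summit lay within 500 bp of the end in both lists at PHYB, PHYC, PHYD, PHYE and PIF4, which is 5 of 9, against 85.4% of all such genes, 84.5% of those of 2 to 4 kb and 85.0% of those of 4 kb or more. PHYA met this cutoff in replicate 1, at 265 bp, but not in replicate 2, at 669 bp. In replicate 2 PIF5 and PIF1 missed it narrowly, at 502 and 506 bp. The median distance over all protein-coding genes was 232 bp in both lists. For the phytochrome genes it was 240 bp in replicate 1 and 348 bp in replicate 2, and for the 4 PIF genes with a peak it was 705 and 504 bp. In replicate 1 the PIF values, from 450 to 1026 bp, overlapped the phytochrome values at a single gene, PHYE, and in replicate 2 the PIF values, from 482 to 921 bp, overlapped them at PHYA. These genes are members of a chosen list and not replicates, so the difference between the families was described and not tested.

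**Figure D3:**
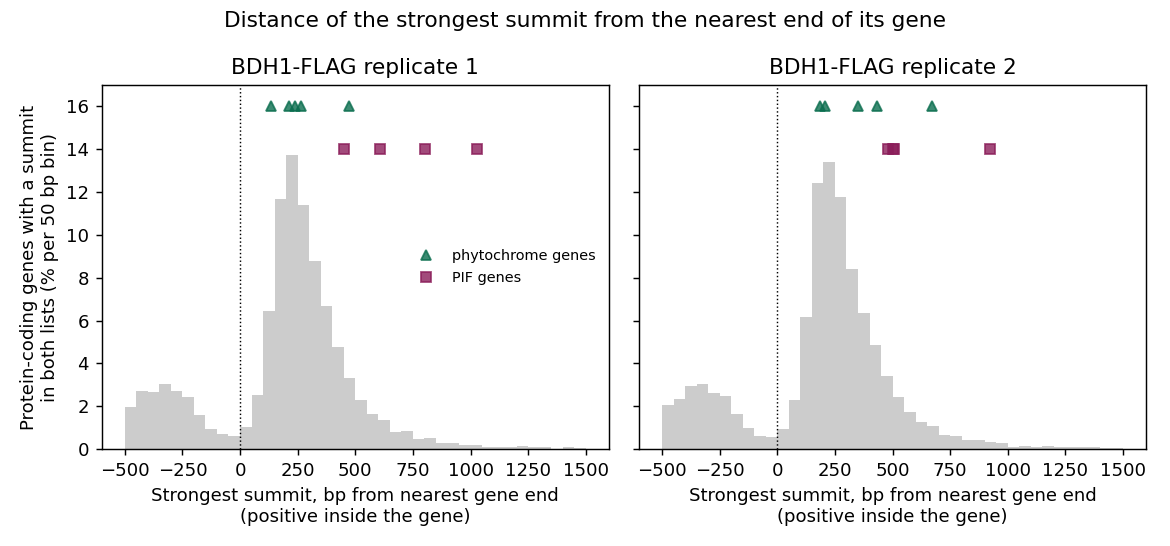
Distance in bp of the strongest summit from the nearest end of its gene, positive inside the gene, in replicate 1 (left) and replicate 2 (right). Grey bars give the percentage of the 13333 protein-coding genes with a summit in both lists per bin of 50 bp, triangles are the 5 phytochrome genes and squares the 4 PIF genes with a peak, drawn at arbitrary height. The PIF genes sit to the right of the main body of genes, from 450 bp inwards.

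At the PIF genes peak height was less distinctive than position. The median fold enrichment of the strongest peak was 2.47 in replicate 1 and 2.76 in replicate 2 for the phytochrome genes, and 2.67 and 2.32 for the 4 PIF genes with a peak. Over all protein-coding genes with a summit in both lists it was 2.45 and 2.42. The strongest peak was above the median of its list at 8 of the 9 genes in each replicate, against 67.2% of all protein-coding genes with a summit in both lists in replicate 1 and 67.4% in replicate 2. It was above the upper quartile at PHYA, PHYC, PIF4 and PIF5 in replicate 1, against 36.0% of those genes, and at PHYA, PHYB, PHYC, PHYD and PIF5 in replicate 2, against 36.6%. None was among the highest peaks of the genome, since 1881 peaks in replicate 1 and 1204 in replicate 2 stood above the best of them. PHYA, PHYC and PIF5 were thus above the upper quartile in both lists, and PIF4, PHYB and PHYD in 1 list each.

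Agreement of the replicates at these loci was close to that of the whole lists for intervals and lower for summits. Of the 16 member peaks of replicate 1, 13 overlapped a peak of replicate 2 (81.2%), and of the 14 of replicate 2, 13 overlapped one of replicate 1 (92.9%). The shares over all peaks were 84.6% and 86.7%. The unmatched peaks were the minor ones at PHYB, PIF3 and PIF5 in replicate 1 and at PIF4 in replicate 2, with fold enrichments from 1.72 to 2.00. Summits within 100 bp of each other were found for 5 of 16 and 5 of 14 member peaks, against 53.4% and 54.2% of all peaks. Between the strongest peaks the summits were 32 bp (PIF4) to 404 bp (PHYA) apart, whereas all overlapping peaks had a median of 71 bp when counted over replicate 1 and of 72 bp over replicate 2.

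Other genes of light signalling were examined by the same rule, from a list of 33 genes ordered by role. In both lists 25 of them (75.8%) had a peak, 2 had one in a single list and 6 had none, against 52.1% of all protein-coding genes. That background is not matched for length. Over the 3 groups of longest genes it was 67.5%, but many of the listed genes are shorter. In the length groups that hold those, the 2nd to the 7th counted from the shortest genes, it ran from 30.1% to 62.2%. No share matched for length was computed for this list. All 4 genes of phytochrome A nuclear import and its activation (FHY1, FHL, FHY3, FAR1), both chromophore synthesis genes (HY1, HY2) and all 3 other photoreceptor genes (CRY1, CRY2, UVR8) had a peak in both. On the side of the COP1 ubiquitin ligase, which removes light-promoting factors in the dark, 7 of 8 genes had one, SPA3 being listed in replicate 2 alone. Among the helix-loop-helix relatives and partners of PIFs it was 4 of 7, without HEC1, HEC2 and PIF6. Of 5 genes for phytochrome-associated proteins 2 had a peak, LRB1 and LRB2, and HMR, TZP and PKS1 had none in either list. Of the transcription factors that promote light-grown development, HY5 and HYH had a peak and LAF1 had none. The shade-induced gene ATHB2 had one as well. At FHL, PIL1 and UVR8 the strongest peaks of the 2 lists did not overlap each other. All 3 other photoreceptor genes, and all genes of the COP1 side but COP10, belong to the 3 groups of longest genes. Nothing particular to light signalling is read from these counts.

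At a −log10 q of at least 10 in both lists 5 of the 33 genes remained (15.2%), near the 11.8% of all protein-coding genes. LRB2 (symbol POB1 in the gene table), a BTB adaptor that takes part in the removal of PIF3 and PHYB, had the highest values of these, with a fold enrichment of 3.44 in replicate 1 and 3.11 in replicate 2. Its relative LRB1 had 2.78 and 2.91. PAR1, a small helix-loop-helix protein that blocks PIF4, had 3.41 and 2.82. FHY1, which carries phytochrome A into the nucleus, had 2.97 and 2.87, and HY5, the bZIP factor that promotes light-grown development and competes with PIFs, had 2.70 and 2.74. The summits of these 5 peaks lay inside the named gene in both lists, from 210 to 775 bp from its nearest end.

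**Figure D4:**
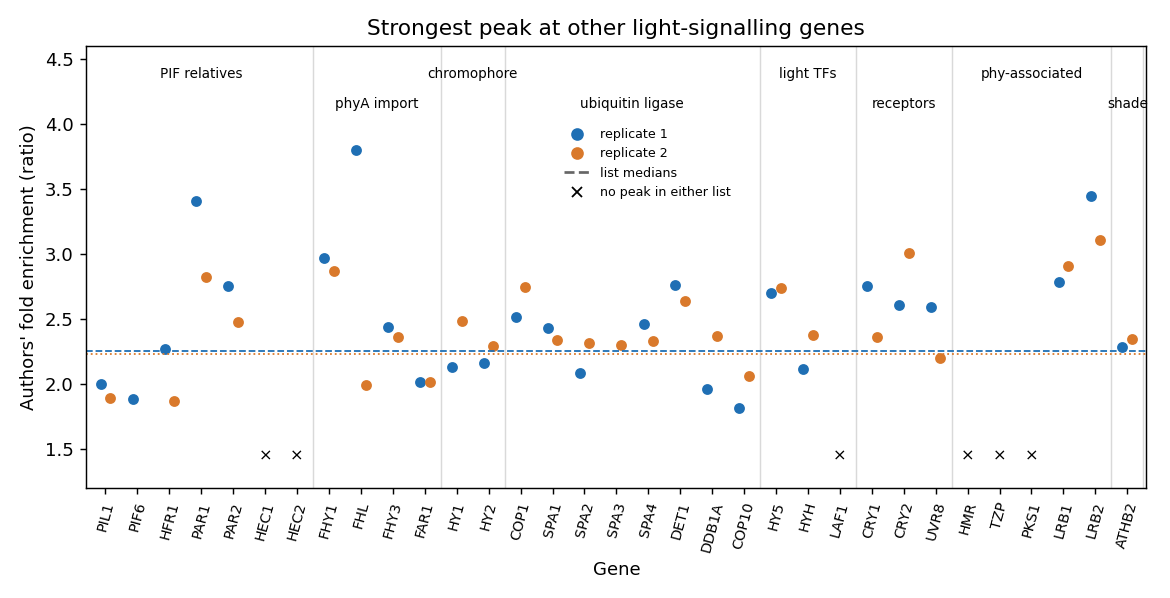
The authors' fold enrichment (a ratio) of the strongest peak that overlaps each of 33 other light-signalling genes, grouped by role, in replicate 1 (blue) and replicate 2 (orange). Dashed and dotted lines are the medians of the lists, crosses mark the 6 genes without a peak in either list, and a gene with 1 point has a peak in that list alone. The replicate 1 values of FHL and PIF6 belong to peaks whose summits lay outside their extended loci, and LRB2 stands at 3.44 and 3.11. At FHL, PIL1 and UVR8 the points of the 2 lists belong to peaks that do not overlap each other.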

How the data were processed

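Anti-FLAG ChIP-seq of inflorescences was deposited as 1 narrowPeak list per BDH1-FLAG replicate, so peaks were called per sample and not pooled. Bowtie2 2.5.2, SAMtools, bedtools 2.31.1, MACS2 2.2.9.1 and build TAIR10 are named in the submitters' processing notes, without roles, options or the control library. Per peak the authors deposited a ratio (fold enrichment), a score, and p and q as −log10 values; the score and the −log10 p were not used.

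Gene spans came from a RefSeq table of TAIR10.1, whose coordinates are not printed. Its fit to the lists was checked by moving gene ends: 41.2% and 42.3% of summits lay within 250 bp of a protein-coding gene end without a shift, against 21.9% to 23.7% at shifts of 2 to 10 kb. Peak coordinates are 1-based. All values were computed with Python 3.11.15 and pandas 2.3.3, and the overlap step was tested on simulated peaks. A gene was called by an overlap of 1 bp or more in both lists.

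The 10 genes and the other lists were chosen with earlier results of these data known, so no test was run and the main counts of genes are given beside the share of all protein-coding genes that met the same rule. All members are named; of other genes, those with −log10 q of at least 10 in both lists are given with values. Of 36 pathway genes listed, 3 were left out because the table did not carry the name. The table gives no strand and no sequence was used here, so the planned distance from gene starts became distance from the nearest gene end, and the planned motif search was not run. Alternatives covered −log10 q thresholds, the extension, summits, and each list alone.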

Additional observations from a re-analysis of the deposited data

How the results depend on the processing

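No paired analysis was possible because a single group had peak lists. The count of 9 genes was the same for peaks with −log10 q of 5 or more, without the extension, by summits and in either list alone, and was 10 with 1000 bp, where the peaks past PIF7 came in. For peaks with −log10 q of 10 or more it was 3, the pathway count fell from 25 to 5 (16 at 5) and that of all protein-coding genes from 14297 to 3246, as fewer peaks remained. Of all protein-coding genes, 36.9% were called at 5, 45.4% without the extension and 48.6% by summits. In the lists of replicates 1 and 2 alone, 55.6% and 56.2% were called, and with 1000 bp 15676 of 27444 were called in both. The share of member peaks matched in the other list averaged 87.1% ± 8.21 (SD of the 2 directions of 1 comparison). It was 73.7% with reciprocal overlap of 50%, and 33.5% when summits had to lie within 100 bp. Restricting both lists to −log10 q of 5 or more gave 100%, and to 10 or more 67.5%. The shares over all peaks of replicates 1 and 2 were 70.1% and 71.1% with reciprocal overlap and 53.4% and 54.2% by summits. They were 78.1% and 82.2% at 5, and 60.6% and 71.8% at 10. At 10 or more, the unmatched member peaks were 2 of 5 in replicate 1 and 1 of 4 in replicate 2. These were the PIF4 peak and the peak at PAO3 in replicate 1, and the PHYD peak in replicate 2. Each overlapped a peak of the other list that fell below the cutoff, with −log10 q of 7.88, 9.61 and 6.68. The median distance of all member summits from the nearest gene end was 476.5 bp ± 21.9 (SD, n = 2), 461 to 492 bp in single lists, and 521 bp with summits outside the genes left out. The median rank of the strongest peaks was 27.1% of the list by fold enrichment and 30.4% by −log10 q; the cause was not tested. The distance from gene starts was not run for lack of strand. Unknown read depth limits what can be said of weak or absent peaks.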
